A study of Mus musculus with 16 samples.

Results

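The Myc, Max and Mxd network was followed through 9 genes in B cells on their way from the germinal centre (GC) to memory. Its members were the activators Myc and Mycn, the Myc-induced factor gene Tfap4, the shared partner Max, and the antagonists Mxd1, Mxd3, Mxd4, Mxi1 and Mnt. They were taken by gene symbol, not by their values, and all 9 stood among the 23234 named genes of the deposited table. The genes lie on chromosomes 15 (Myc), 12 (Mycn and Max), 16 (Tfap4), 6 (Mxd1), 13 (Mxd3), 5 (Mxd4), 19 (Mxi1) and 11 (Mnt).

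Messenger RNA was sequenced from 16 libraries of spleen B cells, sorted on day 10 of an immune response into 6 gates. The transferred naive B cells were of C57BL/6 background with the genotype Bcl6-YFP(KI/+) B1-8hi(KI/+), and their hosts were wild-type CD45.1+ mice given NP-CGG in alum intraperitoneally. The B1-8hi receptor binds the hapten NP, and Bcl6-YFP reports expression of the GC regulator Bcl6. Every gate carried both knock-in alleles, had the same immunisation and came from pooled spleens of 9 recipients. All cells were donor-derived (CD45.2+), NP-binding, IgG1+ and CD138-. LZ cells (n = 3) were light zone cells, negative for CD38, high for CD86 and low for CXCR4. Fraction 2 (n = 2, named prone to recycling) and Fraction 3 (n = 3, named under selection) were LZ cells with high Bcl6-YFP and with CD69 high in Fraction 2 and low in Fraction 3. The other gates were CD38+ and GL7-. Efnb1, a surface ligand, and Bcl6-YFP were both high in Fraction 5 (n = 3, pro-memory) and both low in Fraction 7 (n = 3, mature memory), and Fraction 6 (n = 2, pre-memory) was Efnb1-high with little Bcl6-YFP.

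Myc and its relative Mycn bind DNA only as dimers with Max, at the sequence called the E-box, and raise transcription of genes for ribosome production, metabolism and cell division. The Mxd proteins, Mxi1 and Mnt also pair with Max, occupy the same sites and recruit the Sin3 and histone deacetylase complex, which represses transcription. In GC B cells Myc is known to mark light zone cells selected to re-enter the dark zone, and AP4, the product of Tfap4, is known as a Myc-induced factor that prolongs the Myc programme after Myc has declined.

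Values are FPKM, which are scaled to gene length by an annotation that is not given, so they compare different genes only roughly. Their sum lay between 416741 and 492578 per library, with 10133 to 10552 genes at 1 FPKM or more. The smallest steps of low values put the depth of each library at 0.922 to 1.21 times that of LZ library 1, while read numbers are unknown. Nothing in the labels tells if a gate's libraries are from different pools of mice, so every p-value reflects the spread among the libraries at hand, possibly a technical one. In bulk samples of this kind, fewer cells with a transcript and less transcript per cell cannot be told apart. The 6 B cell markers summed to between 2308 and 4222 FPKM, and of 7 T cell markers found only Lck reached 1 FPKM in any library. Of 10 myeloid markers 7 did, with sums of 23.99 to 60.4 FPKM in Fraction 7 and of 6.82 to 42.1 FPKM over the libraries of the other gates. Of 4 erythroid markers found 3 did, with sums of 33.1 to 139.7 FPKM, and of 7 follicular dendritic and stromal markers 3 did, with sums of 31.3 to 48.3 FPKM. The part of these cells in the results was not tested. The 7 GC markers summed to between 724 and 983 FPKM in LZ and Fractions 2, 3 and 5, with sums of 330 and 351 FPKM in Fraction 6 and of 67.3 to 91.6 FPKM for Fraction 7. Fraction 7 libraries 2 and 3 held more plasma cell mRNA than library 1: Igj stood at 46.9 FPKM in library 1, 296 in library 2 and 292 in library 3, and Sdc1, which encodes CD138, at 0.502, 4.44 and 4.51 FPKM in the same order. The part of these plasma cell transcripts in the results was not tested, but library 1 was also set alone against the other gates.

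Of the 9 members, 8 passed the filter of at least 1 FPKM in 2 libraries and were tested with limma on log2(FPKM + 1) together with all 11266 genes that passed. Mycn was listed at 0 in all 16 libraries. Every one of the 8 tested members differed among the 6 gates (limma F test, adjusted p between 6.34e-10 for Mxd3 and 0.0243 for Mnt), as did 69.7% of all genes tested. A call below is an adjusted p under 0.05, with Benjamini-Hochberg adjustment over all genes, and a log2 change on this scale understates the change of genes of low level. The 6 main comparisons are Fraction 2 against Fraction 3, Fraction 5 against Fractions 3 and 2, Fraction 6 against Fraction 5, and Fraction 7 against Fraction 6 and LZ. Without rescaling between libraries the median log2 change of all genes was -0.10 in Fraction 7 against LZ, and between -0.05 and 0.04 in the other 5 of these. Several comparisons share libraries, so their values stand side by side and are not independent.

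**Figure D1:**
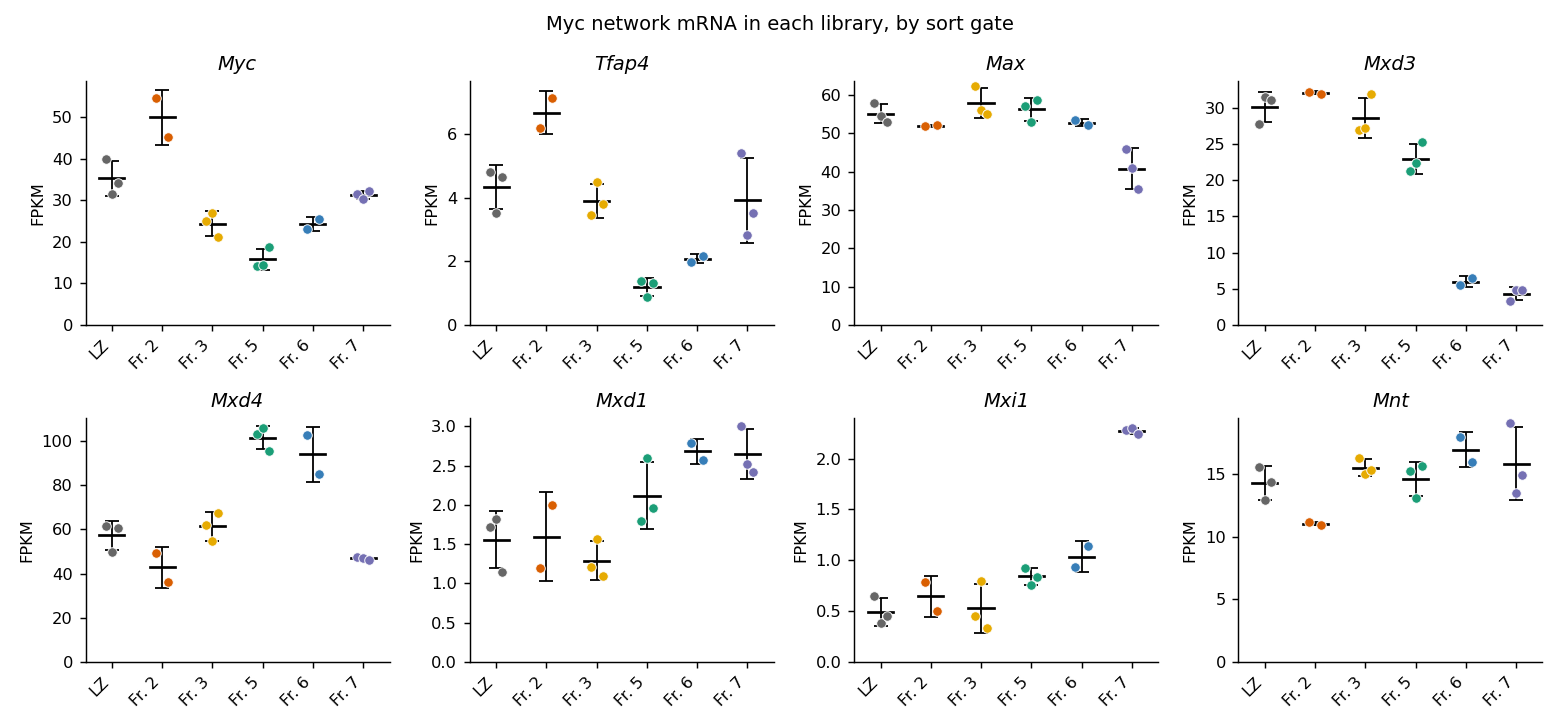
FPKM (y axes, linear from 0) of the 8 expressed network members in each library of the 6 gates (x axes, light zone to memory); points are libraries, long bars the mean and whiskers 1 SD. Myc and Tfap4 have both Fraction 2 libraries above and all 3 Fraction 5 libraries below every other library, Mxd4 has its 5 highest libraries in Fractions 5 and 6, and Mxd3 drops below 7 FPKM in Fractions 6 and 7.

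Fraction 2 against Fraction 3 called 4 of the 8 members, where 15.6% of all genes were called. Fraction 5 called 4 members against Fraction 3 (29.5% of all genes), 5 against Fraction 2 (43.7%) and 4 against LZ (31.4%). Fraction 6 against Fraction 5 called 2 members, beside 17.5% of all genes. For Fraction 6, the counts were 6 against LZ (47.4%), 6 against Fraction 2 (52.2%) and 5 against Fraction 3 (46.9%). Fraction 7 called 5 members against Fraction 6 (21.2%), 6 against Fraction 5 (47.6%), 6 against Fraction 3 (62.9%), 7 against Fraction 2 (63%) and 4 against LZ (62.1%). Each of these Fraction 7 counts includes Mxi1, as do those of Fraction 6 against LZ and Fraction 3. Mxi1 passed the filter through the gate where it was high, so its part in these counts is no support. Against LZ, limma called 0 members for Fraction 2 (4.38% of all genes), with Myc, Mxd4, Mnt and Tfap4 at an unadjusted p under 0.05. It also called 0 members for Fraction 3 (0.124%), with Myc alone at an unadjusted p under 0.05. No count over the 8 members was tested against the share of all genes, and in Fraction 7 against LZ, 4 of 8 is under that share.

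Promoter windows were read for the members, since Max dimers bind DNA at the E-box CACGTG. The RefSeq windows (build GRCm38.p6) run from 250 bases before to 50 bases after each gene's start, and 9 windows matched 7 of the members. Myc and Tfap4 had no window, so their promoters were not searched. CACGTG, which reads the same on both strands, stood in 3 of these 9 windows, in Max, Mxd4 and Mnt, and in 7.15% of all 32851 windows. The motif CAGCTG, the AP4 type of E-box, which shares no full match with CACGTG and also reads the same on both strands, stood in 0 of the 9 and in 16.3% of all windows. The stretches below show the 3 matches in the gene's own direction, 5′ to 3′, with the E-box in capitals. They lie at chr12:76962234-76962263 (Max, minus strand, motif beginning 3 bases before the start), chr5:34187897-34187956 (Mxd4, minus strand, 219 bases before) and chr11:74830774-74830833 (Mnt, plus strand, 123 bases before). A match describes the letters of the window and is no evidence of binding.
Max: ggtgagcccggtCACGTGttagggggccga
Mxd4: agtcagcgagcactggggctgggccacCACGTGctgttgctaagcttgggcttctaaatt
Mnt: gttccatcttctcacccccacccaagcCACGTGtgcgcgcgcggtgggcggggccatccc

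Among the activators, Myc was highest in Fraction 2, lowest in Fraction 5, and higher again in the pre-memory gate and in mature memory. The LZ libraries held 40.04, 31.6 and 34.2 FPKM, those of Fraction 2 held 54.6 and 45.4, and those of Fraction 3 held 25.1, 26.9 and 21.1. On the memory side Myc stood at 14.2, 14.6 and 18.7 FPKM in Fraction 5, at 23.2 and 25.5 in Fraction 6 and at 31.5, 30.3 and 32.1 in Fraction 7. Both Fraction 2 libraries lay above, and all 3 Fraction 5 libraries below, every library of the other gates, while Fraction 7 lay within or just under the LZ range and Fraction 6 within that of Fraction 3. The mean of the highest gate was 3.16 times that of the lowest.

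Myc rose in Fraction 2 against Fraction 3, by a log2 change of 1.01 ± 0.13 (SE, adjusted p = 0.000787). It fell in Fraction 5, by a log2 change of -0.60 ± 0.12 against Fraction 3 (adjusted p = 0.00229) and of -1.60 ± 0.13 against Fraction 2 (adjusted p = 1.17e-06). These 3 calls held in all 25 alternative fits each. In Fraction 6 Myc rose against Fraction 5 (0.60 ± 0.13, adjusted p = 0.00682), a call lost without Fraction 6 library 2 (adjusted p = 0.0776, range over all alternatives 0.00221 to 0.0776). Against Fraction 5, the Myc of Fraction 7 rose by a log2 change of 0.95 (adjusted p = 1.87e-05).

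In Fraction 7 against Fraction 6 the log2 change of Myc was 0.35 ± 0.13 (adjusted p = 0.0829), which passed only under quantile normalization and median-ratio scaling (adjusted p between 0.0248 and 0.329 over the alternatives). Fraction 7 and LZ did not differ beyond their spread (log2 change -0.16 ± 0.12, adjusted p = 0.264), and the sign turned positive under both rescalings, to 0.14 and 0.0021. In the order of Myc levels, Fraction 2, LZ, Fraction 7, Fraction 3, Fraction 6 and Fraction 5, the neighbours that passed were Fraction 7 over Fraction 3 (adjusted p = 0.0199) and Fraction 6 over Fraction 5. The first of these was lost with Fraction 7 library 1 alone (adjusted p = 0.122), without Fraction 7 library 3 and without Fraction 3 library 3 (range over the alternatives 0.000419 to 0.122). Fraction 2 over LZ was at an adjusted p of 0.0551. Over the 16 libraries and 7918 candidate genes, the log2 levels most like those of Myc were those of Pprc1 (r = 0.964), Rrp1b (0.964) and Pus7 (0.948), points that share libraries and gates.

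Tfap4, which encodes the AP4 factor, followed a similar order at a lower level. Its LZ libraries held 4.804, 3.53 and 4.66 FPKM, those of Fraction 2 held 6.20 and 7.15, and those of Fraction 3 held 3.44, 4.50 and 3.80. Tfap4 stood at 1.38, 0.868 and 1.32 FPKM in Fraction 5, at 1.99 and 2.18 in Fraction 6 and at 5.42, 2.84 and 3.51 in Fraction 7. As with Myc, the Fraction 2 libraries were the 2 highest of all 16 and the Fraction 5 libraries the 3 lowest. Fraction 7 library 1, the one with little plasma cell mRNA, stood apart from libraries 2 and 3 of its gate and above all LZ libraries.

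In Fraction 5 Tfap4 fell by a log2 change of -1.17 ± 0.17 against Fraction 3 (adjusted p = 0.000266) and of -1.81 ± 0.19 against Fraction 2 (adjusted p = 7.54e-06), and both calls held in all 25 alternative fits. It rose in Fraction 2 against Fraction 3 (0.65 ± 0.19, adjusted p = 0.0387), which 10 of 25 alternatives lost (adjusted p up to 0.209), among them the fits without either Fraction 2 library, Fraction 3 library 1 or 3, or either Fraction 6 library. In Fraction 7 it rose against Fraction 6 (0.64 ± 0.19, adjusted p = 0.0310), lost in 7 of 25 alternatives (adjusted p up to 0.155), among them the fits without Fraction 7 library 1 or 3 and without Fraction 6 library 1 or 2. The highest mean, in Fraction 2, was 5.61 times the lowest, in Fraction 5. Fraction 7 against LZ was at -0.14 ± 0.17 (adjusted p = 0.503), and at 0.28 with Fraction 7 library 1 alone. Rab27a (r = 0.921), AI848285 (0.918) and Nus1 (0.918) had the most similar log2 levels.

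Max, the partner of Myc and of all 5 antagonists, varied least in relative terms, with a highest mean 1.42 times its lowest. It was at 57.8, 54.5 and 52.9 FPKM in LZ, 51.9 and 52.1 in Fraction 2, and 62.3, 56.1 and 55.0 in Fraction 3. In Fraction 5 it was at 57.0, 53.0 and 58.8 FPKM, in Fraction 6 at 53.4 and 52.1, and in Fraction 7 at 46.0, 40.9 and 35.4. The 3 Fraction 7 libraries lay below the other 13, among which those of Fraction 2 were the lowest. The Max window with an E-box beginning 3 bases before its start is shown above.

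Fraction 7 was called lower in Max against each of the other 5 gates, by a log2 change of -0.43 ± 0.08 against LZ (adjusted p = 0.000522) and of -0.37 ± 0.09 against Fraction 6 (adjusted p = 0.0123). No other pair of gates was called for Max. The call against Fraction 6 was lost without Fraction 6 library 1, without Fraction 6 library 2 and when the 2 gates were fitted alone. That against Fraction 2 was lost under median-ratio scaling. The drop depended on how libraries were scaled: quantile normalization lost it against LZ (adjusted p = 0.364, range over the alternatives 8.02e-05 to 0.364) and against Fraction 3 (adjusted p = 0.118), and gave 0.03 in place of -0.35 against Fraction 2. It was smallest in Fraction 7 library 1, and that library alone gave an adjusted p of 0.215 against Fraction 6 and of 0.0673 in the F test over the 6 gates. Cep164 (r = 0.946) and Rere (0.942) were among the genes most like Max.

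The antagonists did not move as one. Mxd4 peaked in the pro-memory and pre-memory gates, Mxd3 dropped between them, Mxi1 was highest in mature memory, and Mxd1 and Mnt differed less. Mxd4 was the most abundant of the 5 in every gate by mean FPKM.

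**Figure D2:**
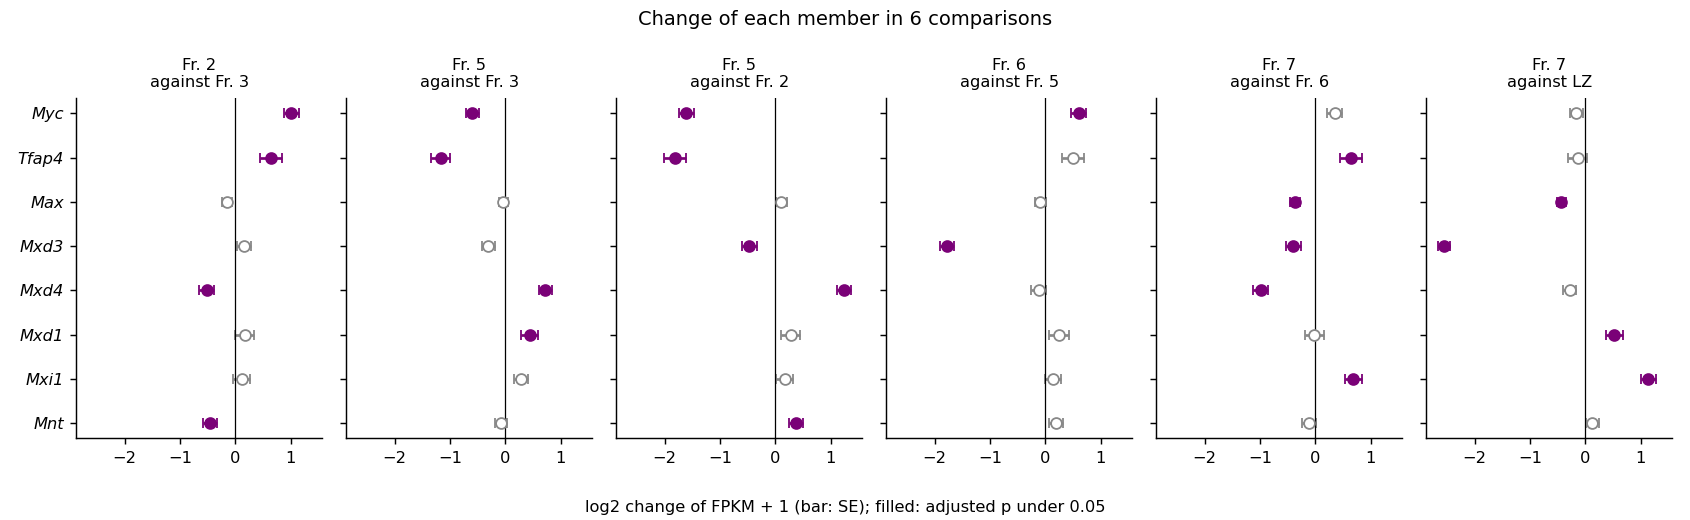
Log2 change of FPKM + 1 (x axes) of the 8 tested members (rows) in 6 comparisons (panels); points are the limma estimate, bars its SE, and filled points have an adjusted p under 0.05. Myc and Mxd4 lie on opposite sides of 0 in the 3 panels that compare Fractions 2, 3 and 5, and Mxd3 has the most negative value, -2.55 in Fraction 7 against LZ.

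Mxd4 encodes a Max partner known from differentiating and resting cells. It stood at 61.8, 49.7 and 60.6 FPKM in LZ, 49.5 and 36.4 in Fraction 2, and 62.0, 54.6 and 67.6 in Fraction 3. The Fraction 5 libraries held 103, 106 and 95.6 FPKM, those of Fraction 6 held 103 and 85.2, and those of Fraction 7 held 47.3, 47.0 and 46.2. All 5 libraries of Fractions 5 and 6 exceeded the other 11, and the 3 Fraction 7 libraries lay below all of LZ and within the Fraction 2 range.

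Against Fraction 3, Mxd4 rose in Fraction 5 by a log2 change of 0.72 ± 0.12 (adjusted p = 0.000579), and against Fraction 2 by 1.24 ± 0.13 (adjusted p = 7.71e-06). Fraction 6 and Fraction 5 did not differ beyond their spread (-0.12 ± 0.13, adjusted p = 0.618). In Fraction 7 it fell against Fraction 6 by a log2 change of -0.98 ± 0.13 (adjusted p = 0.000136). The called changes named so far for Mxd4 held in all 25 alternative fits. Mxd4 also fell in Fraction 2 against Fraction 3 (-0.52 ± 0.13, adjusted p = 0.0201), a call lost without Fraction 2 library 2, without Fraction 3 library 3 and when the 2 gates were fitted alone (adjusted p between 0.0129 and 0.235 over the alternatives). Against LZ the Fraction 7 value was -0.28 ± 0.12 (adjusted p = 0.0553), and 0.10 under quantile normalization. Irgq (r = 0.958), Ciita (0.934), the regulator of MHC class II genes, and the apolipoprotein gene Apoe (0.924) were most like it.

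Mxd3 is known, unlike the other Mxd genes, as one expressed in dividing cells. Its libraries held 27.7, 31.5 and 31.1 FPKM in LZ, 32.2 and 31.9 in Fraction 2, and 26.9, 27.2 and 31.9 in Fraction 3. Fraction 5 held 21.3, 22.4 and 25.3 FPKM, Fraction 6 held 5.48 and 6.50, and Fraction 7 held 3.36, 4.83 and 4.86. The Fraction 5 libraries lay below all light zone libraries, and those of Fractions 6 and 7 were lower still without overlap.

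It fell in Fraction 6 against Fraction 5 by a log2 change of -1.78 ± 0.13 (adjusted p = 1.04e-06) and in Fraction 7 against LZ by -2.55 ± 0.12 (adjusted p = 5.54e-10), and both calls held in all 25 alternatives. The smaller fall in Fraction 5 against Fraction 2 (-0.47 ± 0.13, adjusted p = 0.0105) was lost under quantile normalization and without either Fraction 2 library (adjusted p up to 0.0893). Against Fraction 3 the Fraction 5 value was -0.31 ± 0.12 (adjusted p = 0.0647). The fall in Fraction 7 against Fraction 6 (-0.39 ± 0.13, adjusted p = 0.0468) was lost in 17 of 25 alternatives, with an adjusted p up to 0.325.

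The 3 genes most like Mxd3 over the 16 libraries were the mitotic genes Kif23 (r = 0.995), Cdc20 (0.994) and Ccnf (0.994). Cell cycle genes fell in the same comparisons. Of 18 mitosis genes, 0 rose and 18 fell in Fraction 6 against Fraction 5 (median log2 change -1.99, all genes -0.00), and Mki67 averaged 17.6 ± 1.54 FPKM in Fraction 6 against 76.6 ± 17.4 FPKM in Fraction 5 (SD). Of 24 S phase genes, 21 fell in that comparison and 0 rose. In Fraction 7 against LZ, 18 of 18 mitosis genes and 23 of 24 S phase genes fell. In Fraction 5 against Fraction 3, where Mxd3 was not called, 13 of 18 mitosis genes (median -0.64) and 23 of 24 S phase genes (median -1.13) fell. Of all 11266 genes, 17.5% were called in Fraction 6 against Fraction 5 (1171 lower) and 62.1% in Fraction 7 against LZ (4279 lower). In Fraction 5 against Fraction 3 it was 29.5% (2197 lower). The part of cell division in the Mxd3 values was not tested. Mxd3 also overlaps Prelid1 on the opposite strand, and the library kit does not mark strand, so reads of the overlap cannot be told apart. Prelid1 itself held 106 to 127 FPKM in Fraction 7 libraries, 126 and 137 FPKM in those of Fraction 6, and 138 to 149 FPKM in those of Fraction 5.

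Mxi1, which encodes the Max partner also called Mxd2, was close to the filter in most gates. It was at 0.643, 0.379 and 0.451 FPKM in LZ, 0.788 and 0.498 in Fraction 2 and 0.451, 0.798 and 0.330 in Fraction 3. It was at 0.924, 0.759 and 0.836 FPKM in Fraction 5, at 0.928 and 1.14 in Fraction 6, and at 2.28, 2.30 and 2.24 in Fraction 7. The 3 mature memory libraries lay close together and above all others. Mxi1 rose in Fraction 7 against LZ by a log2 change of 1.14 ± 0.13 (adjusted p = 4.51e-06, called in all 24 alternatives that tested it), and against Fraction 6 by 0.69 ± 0.15 (adjusted p = 0.00438, lost only without Fraction 6 library 1 at 0.0501). Its 4 libraries at or above 1 FPKM were 1 of Fraction 6 and all 3 of Fraction 7, so it passed the filter through the gate where it was high.

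Mxd1, the antagonist known for induction during differentiation, was also low. The LZ libraries held 1.71, 1.82 and 1.14 FPKM, those of Fraction 2 held 1.19 and 1.99, and those of Fraction 3 held 1.21, 1.57 and 1.09. It was at 1.79, 2.603 and 1.96 FPKM in Fraction 5, at 2.79 and 2.57 in Fraction 6 and at 3.01, 2.52 and 2.42 in Fraction 7. The libraries of Fractions 6 and 7 lay above those of LZ, Fraction 2 and Fraction 3, and Fraction 5 overlapped both sides. Mxd1 rose in Fraction 7 against LZ (0.52 ± 0.15, adjusted p = 0.00946), a call narrowly lost without LZ library 3 (adjusted p = 0.050006, the highest over the alternatives, with 0.00185 the lowest). In Fraction 5 it rose against Fraction 3 (0.44 ± 0.15, adjusted p = 0.0446), which 14 of 24 alternatives lost (adjusted p up to 0.159), among them each fit that left out a Fraction 5 library. Fraction 7 and Fraction 6 gave -0.02 ± 0.17 (adjusted p = 0.966).

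Mnt, known as the antagonist present in resting and dividing cells alike, varied little. It stood at 15.6, 12.9 and 14.3 FPKM in LZ, 11.1 and 10.9 in Fraction 2 and 16.3, 14.97 and 15.3 in Fraction 3. Fraction 5 held 15.2, 13.1 and 15.6 FPKM, Fraction 6 held 17.96 and 15.96, and Fraction 7 held 19.1, 13.5 and 14.9. Both Fraction 2 libraries were the lowest of all 16, and both Fraction 6 libraries lay above those of LZ and Fraction 5 without a called difference. Mnt fell in Fraction 2 against Fraction 3 (-0.45 ± 0.13, adjusted p = 0.0278) and rose in Fraction 5 against Fraction 2 (0.37 ± 0.13, adjusted p = 0.0283). Each of these calls was lost in 5 of 25 alternatives, among them the fits without Fraction 2 library 1 or 2 (adjusted p up to 0.134 and up to 0.115), the first also without Fraction 3 library 1 or 3 and the second without Fraction 5 library 1 or 3. Mnt was also called higher in Fraction 6 and in Fraction 7 against Fraction 2 (adjusted p = 0.00327 and 0.00523). Zcchc2 (r = 0.905), Fam100a (0.896) and Arid1a (0.882) were most like it.

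Set side by side, the network's makeup differed between gates. The 5 antagonists summed to 104 ± 6.52 FPKM in LZ, 88.3 ± 9.28 in Fraction 2, 107 ± 8.53 in Fraction 3, 142 ± 2.69 in Fraction 5, 121 ± 13.3 in Fraction 6 and 72.0 ± 2.70 in Fraction 7 (SD). Myc as a share of Myc plus the 5 antagonists was 25.3% ± 1.61 in LZ, 36.1% ± 0.606 in Fraction 2, 18.6% ± 3.01 in Fraction 3, 10.0% ± 1.58 in Fraction 5, 16.9% ± 2.50 in Fraction 6 and 30.3% ± 0.850 in Fraction 7. The highest Fraction 5 library, at 11.8%, lay under the lowest of any other gate, at 15.1% in Fraction 6. The lowest Fraction 7 library, at 29.6%, lay above the highest LZ library, at 27.1%. Mxd3, which counts in these sums, averaged 30.1 FPKM in LZ and 4.35 FPKM in Fraction 7. The part of Mxd3 in the difference of share between these gates was not tested.

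Mature memory had the smallest antagonist sum beside a Myc level within reach of LZ, and pro-memory had the largest sum beside the lowest Myc. Mxd4 made up 48.4% ± 5.45 of the antagonist sum in Fraction 2, 71.4% ± 2.45 in Fraction 5 and 77.8% ± 1.86 in Fraction 6. Mxd3 made up 29.1% ± 3.45 in LZ, 36.5% ± 3.61 in Fraction 2, 16.2% ± 1.74 in Fraction 5, 5.02% ± 1.15 in Fraction 6 and 6.08% ± 1.39 in Fraction 7. Mnt had its largest share in Fraction 7, at 21.9% ± 3.19. These sums and shares describe mRNA, with no test, and say nothing of the amount of protein.

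**Figure D3:**
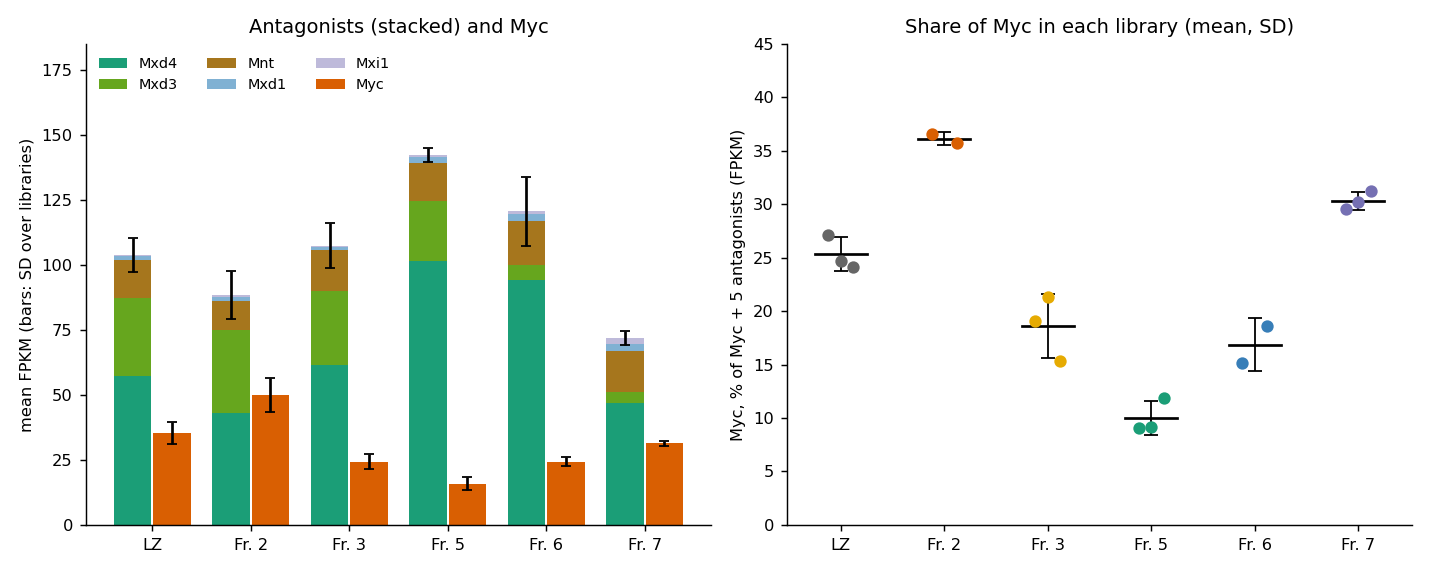
Left, mean FPKM per gate (y axis, from 0) of the 5 antagonists as stacked bars beside Myc, with whiskers of 1 SD over libraries for the sum and for Myc; right, Myc as a percentage of Myc plus the 5 antagonists in each library, with mean and SD. The antagonist sum is largest in Fraction 5, at 142 FPKM, where the Myc share is smallest, at 10.0%.

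The extended network of Max and its relative Mlx had 3 of 5 genes above the filter. Mga, which encodes a Max partner that recruits a repressive complex, rose in Fraction 7, with 13.9 ± 2.04 FPKM against 6.78 ± 0.541 FPKM in LZ (SD, n = 3 each, log2 change 0.93, limma adjusted p = 5.47e-06). Mlxip, which encodes the glucose-responsive factor MondoA, rose in Fraction 6 with 27.1 ± 1.59 FPKM against 19.7 ± 1.82 FPKM in Fraction 5 (0.44, adjusted p = 0.0149). In Fraction 7, Mlxip fell to 20.9 ± 1.46 FPKM (-0.36 against Fraction 6, limma adjusted p = 0.0378). That was above the 16.7 ± 1.52 FPKM of LZ (0.31, limma adjusted p = 0.0166). Of 2 listed MondoA targets, only Txnip passed the filter. Txnip, a MondoA target that restrains glucose uptake, averaged 69.6 ± 2.32 FPKM in Fraction 5 against 40.7 ± 7.29 FPKM in Fraction 3 (0.78, adjusted p = 0.000605) and 150 ± 15.5 FPKM in Fraction 7 against 41.9 ± 5.86 FPKM in LZ (1.82, adjusted p = 3.47e-08). It rose also in Fraction 6 against Fraction 5 (0.67, adjusted p = 0.00517). Mlx, the partner of MondoA, was called in none of the 6 main comparisons by limma.

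Most genes known to be induced by Myc rose in Fraction 2 and fell in Fraction 5, as Myc did. Of 50 listed genes, 43 rose and 1 fell in Fraction 2 against Fraction 3, with a median log2 change of 0.71 (0.04 over all genes). Of all genes, 15.6% were called in that comparison, 1033 higher and 727 lower. The nucleolar chaperone gene Npm1 averaged 858 ± 48.7 FPKM in Fraction 2 against 477 ± 35.9 FPKM in Fraction 3 (0.85, adjusted p = 0.00104), and the translation factor gene Eif4a1 averaged 471 ± 9.78 FPKM in Fraction 2 against 308 ± 15.2 FPKM in Fraction 3 (0.61, adjusted p = 0.000901). Ldha, the lactate dehydrogenase gene of glycolysis, averaged 426 ± 17.7 FPKM in Fraction 2 against 274 ± 18.3 FPKM in Fraction 3 (0.64, adjusted p = 0.00108). Ptma, the most abundant of the list, did not pass, at 2147 ± 40.5 FPKM in Fraction 2 against 1791 ± 73.1 FPKM in Fraction 3 (adjusted p = 0.0849).

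In Fraction 5, 47 of the 50 fell and 1 rose against Fraction 3 (median -0.71, all genes -0.03), and 49 fell and 1 rose against Fraction 2 (median -1.43, all genes -0.04). Of all genes, 29.5% were called against Fraction 3 (1125 higher and 2197 lower) and 43.7% against Fraction 2 (1872 higher and 3056 lower). In the same 2 comparisons S phase genes fell, 23 of 24 in each, as did 13 and 18 of the 18 mitosis genes, and the part of cell division in the fall of the list was not tested. Npm1 averaged 318 ± 38.1 FPKM in Fraction 5 against 477 ± 35.9 FPKM in Fraction 3 (-0.59, adjusted p = 0.00111). The genes that went against the rest, named after their values were seen, were Ccnd2, a cyclin that drives entry into the cell cycle, and the E2F factor gene E2f2. Ccnd2 rose to 6.31 ± 1.79 FPKM in Fraction 5 against 2.12 ± 0.315 FPKM in Fraction 3 (1.20). E2f2 fell to 33.9 ± 0.376 FPKM in Fraction 2 against 44.4 ± 2.89 FPKM in Fraction 3 (-0.38), and rose in Fraction 5 against Fraction 2 (0.49).

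**Figure D4:**
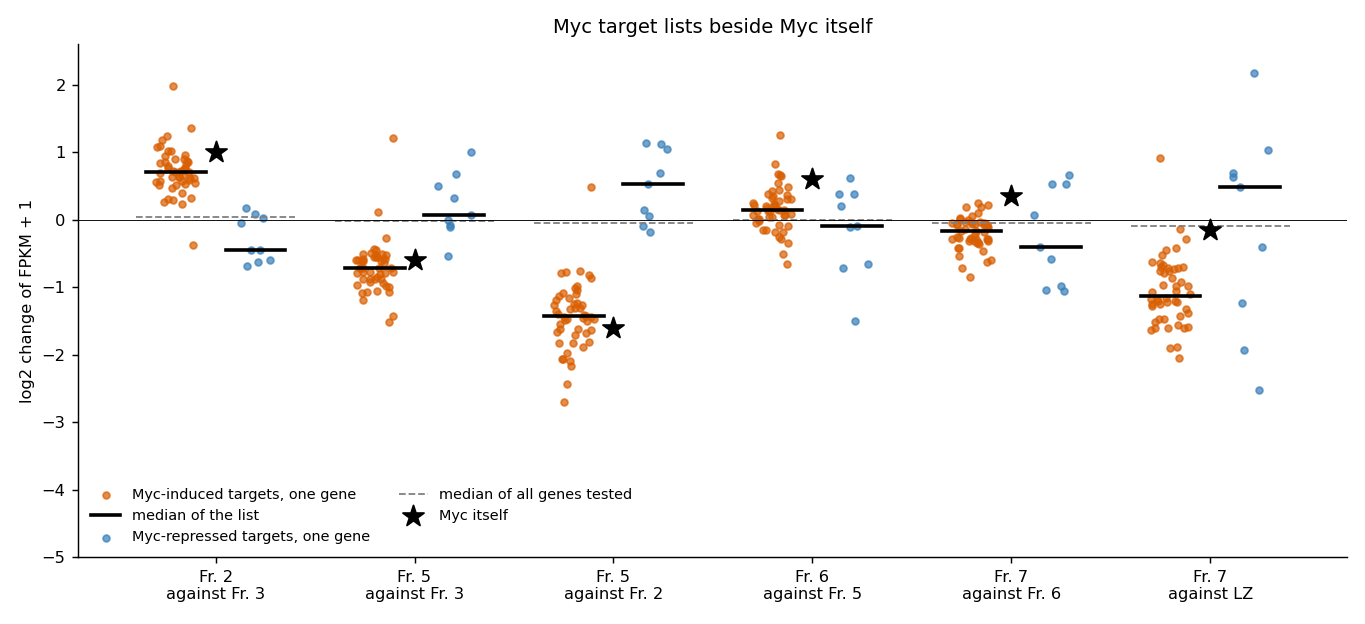
Log2 change of FPKM + 1 (y axis) of the tested genes of the Myc-induced (orange) and Myc-repressed (blue) target lists in 6 comparisons; black bars are list medians, dashed lines the median of all genes tested and stars Myc itself. The 50 Myc-induced genes lie mostly on the side of Myc in the first 3 comparisons, with medians of 0.71, -0.71 and -1.43, while in Fraction 7 against LZ their median is -1.13 and Myc is at -0.16.

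The later comparisons called fewer genes of the list, apart from Fraction 7 against LZ. In Fraction 6 against Fraction 5, where Myc rose, 9 of the 50 rose and 3 fell (median 0.14, all genes -0.00), and 13 or 14 rose under the 2 rescalings. Of all genes, 17.5% were called there, 797 higher and 1171 lower. Srm, the spermidine synthase gene, named after its values were seen, averaged 20.3 ± 4.55 FPKM in Fraction 6 against 11.02 ± 1.27 FPKM in Fraction 5 (0.82), whereas Ptma fell to 619 ± 50.5 FPKM in Fraction 6 against 980 ± 94.1 FPKM in Fraction 5 (-0.66, adjusted p = 0.000301). In Fraction 7 against Fraction 6, 0 rose and 11 fell (median -0.17, all genes -0.05). That share is near the 21.2% of all genes called, 830 higher and 1563 lower. The median was -0.09 with Fraction 7 library 1 alone. In Fraction 7 against LZ, where Myc did not pass, 47 fell and 1, Ccnd2, rose (median -1.13, all genes -0.10). Of all genes, 62.1% were called against LZ, 2718 higher and 4279 lower. With library 1 alone, the list median was -1.06. Npm1 averaged 315 ± 35.3 FPKM in Fraction 7 against 601 ± 52.1 FPKM in LZ (-0.93, adjusted p = 4.16e-06), and Eif4a1 averaged 129 ± 1.16 FPKM in Fraction 7 against 358 ± 13.5 FPKM in LZ (-1.47, adjusted p = 1.34e-09). The fall of cell cycle genes given beside Mxd3 moved with this, and its part was not tested.

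An E-box CACGTG stood in the promoter windows of 15 of the 43 Myc-induced genes with a window (34.9%), against 8.09% of all 27025 genes with one. Eif4a1 and Ldha, 2 of the 4 most abundant of the list, had one or more, and their stretches are printed with the E-box in capitals as examples of the site in genes that fell in Fraction 5. The Ldha sites, on the plus strand, begin 145 and 48 bases before the start (chr7:46845632-46845691 and chr7:46845729-46845788, GRCm38.p6), and that of Eif4a1, on the minus strand, 189 bases before (chr11:69672580-69672639). The list was drawn from known Myc targets, so the share describes the list and was not tested.
Ldha, distal: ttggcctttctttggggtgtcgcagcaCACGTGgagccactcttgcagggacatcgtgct
Ldha, proximal: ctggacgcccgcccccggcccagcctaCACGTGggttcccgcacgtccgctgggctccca
Eif4a1: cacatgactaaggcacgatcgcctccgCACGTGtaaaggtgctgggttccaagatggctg

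Of the 12 genes known to be repressed by Myc, 9 were tested. In Fraction 2 against Fraction 3, 5 fell and 0 rose (median -0.45, 15.6% of all genes called), and in Fraction 5 against Fraction 2, 5 rose and 0 fell (median 0.52, 43.7% of all genes called). The antiproliferative genes Btg1 and Btg2 were among them: Btg1 averaged 57.7 ± 2.40 FPKM in Fraction 2 against 89.6 ± 7.47 FPKM in Fraction 3 (-0.62, adjusted p = 0.00208), and 127 ± 3.84 FPKM in Fraction 5 against 57.7 ± 2.40 FPKM in Fraction 2 (1.13, adjusted p = 1.84e-06). Btg2 averaged 60.5 ± 1.42 FPKM in Fraction 5 against 26.99 ± 0.713 FPKM in Fraction 2 (1.14, adjusted p = 4.56e-07). In Fraction 5 against Fraction 3, 3 rose and 1 fell, with a median of 0.07 (-0.03 over all genes, 29.5% of them called). The list also split in the later gates, with 3 up and 3 down in Fraction 6 against Fraction 5 (17.5% of all genes called). It had 2 up and 5 down in Fraction 7 against Fraction 6 (21.2%), and 4 up and 3 down in Fraction 7 against LZ (62.1%). None of these counts was tested against the share of all genes. The stress gene Gadd45b averaged 17.4 ± 1.05 FPKM in Fraction 7 against 69.2 ± 4.92 FPKM in LZ (-1.93, adjusted p = 4.35e-09), while Btg1 averaged 175 ± 24.7 FPKM in Fraction 7 against 84.9 ± 4.88 FPKM in LZ (1.03, adjusted p = 2.93e-07).

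For the 4 lists that follow, the calls over all 11266 genes were 1033 higher and 727 lower in Fraction 2 against Fraction 3 (15.6% called), 1125 higher and 2197 lower in Fraction 5 against Fraction 3 (29.5%), and 2718 higher and 4279 lower in Fraction 7 against LZ (62.1%). Quantile normalization evened these to 866 and 1041, 1675 and 1664, and 3464 and 3467. Of 17 genes of the repressor complex that the Mxd proteins and Mnt recruit, 1 rose and 8 fell in Fraction 5 against Fraction 3 (median -0.19, all genes -0.03), and 2 rose and 10 fell in Fraction 7 against LZ (median -0.34, all genes -0.10). Hdac1, a histone deacetylase gene, averaged 138 ± 4.58 FPKM in Fraction 5 against 164 ± 6.40 FPKM in Fraction 3 (-0.25, adjusted p = 0.00368) and 70.3 ± 3.75 FPKM in Fraction 7 against 160 ± 1.73 FPKM in LZ (-1.17, adjusted p = 6.34e-10). Sin3b, which encodes the scaffold that Mxd proteins bind, was at 50.3 ± 4.59 FPKM in Fraction 5 against 52.4 ± 4.08 FPKM in Fraction 3 (adjusted p = 0.692). Arid4b, a subunit gene named after its values were seen, rose in Fraction 7 against LZ (0.74, adjusted p = 1.45e-06). Under quantile normalization the counts were 1 up and 4 down in Fraction 5 against Fraction 3, and 6 up and 8 down in Fraction 7 against LZ.

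Of 18 cofactors of Myc, 6 rose and 0 fell in Fraction 2 against Fraction 3, 0 rose and 6 fell in Fraction 5 against Fraction 3, and 0 rose and 13 fell in Fraction 7 against LZ. The share called in Fraction 5 was near that of all genes, and quantile normalization gave 4 up and 2 down, 1 up and 5 down, and 4 up and 8 down in the same comparisons. Ruvbl2, an ATPase gene of chromatin remodelling complexes, averaged 32.0 ± 4.45 FPKM in Fraction 5 against 58.7 ± 1.42 FPKM in Fraction 3 (-0.86, adjusted p = 1.74e-05).

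Genes for Myc turnover and phosphorylation gave 1 rise and 0 falls among 18 in Fraction 2 against Fraction 3, 0 and 9 in Fraction 5 against Fraction 3, and 1 and 10 in Fraction 7 against LZ, a share near that of all genes. Under quantile normalization the counts were 1 and 1, 0 and 5, and 2 and 8. Pim1, a kinase gene, averaged 48.8 ± 3.74 FPKM in Fraction 5 against 71.1 ± 4.90 FPKM in Fraction 2 (-0.53, adjusted p = 0.000757). The ubiquitin ligase gene Huwe1 was the 1 that rose, with 56.3 ± 5.36 FPKM in Fraction 7 against 41.1 ± 1.53 FPKM in LZ (0.44, adjusted p = 0.000436). Plk1 and Aurka, mitotic kinases in this list named after their values were seen, fell in Fraction 6 against Fraction 5 (-2.34 and -1.87). Plk1 is also among the 18 mitosis genes that fell there, so its call counts in both lists.

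Of 16 known regulators of Myc transcription, 3 rose and 1 fell in Fraction 2 against Fraction 3, 0 rose and 6 fell in Fraction 5 against Fraction 3, and 1 rose and 12 fell in Fraction 7 against LZ. The counts in Fraction 5 against Fraction 3 turned on the scaling, with 4 up and 4 down under quantile normalization and 3 up and 5 down under median-ratio scaling. In Fraction 7 against LZ, quantile normalization gave 3 up and 10 down. Cnbp, which encodes a protein that binds the Myc promoter, averaged 195 ± 8.46 FPKM in Fraction 2 against 135 ± 6.59 FPKM in Fraction 3 (0.53, adjusted p = 0.00308). Cd40, the receptor of T cell help, named after its values were seen, rose in the same comparison (0.47, adjusted p = 0.00668). Bcl6, a repressor of Myc, was 17.98 ± 2.77 FPKM in Fraction 7 against 165 ± 11.1 FPKM in LZ, but the gates were set on its reporter, so this is no finding. Bcl6 nevertheless stays among the 16 listed genes and the 12 that fell in Fraction 7 against LZ. The 1 that rose in Fraction 7 against LZ was Prdm1 (0.88, adjusted p = 0.000412), named after its values were seen and also a plasma cell marker. Its Fraction 7 libraries stood at 1.37, 2.00 and 1.97 FPKM, lowest in library 1, against 0.695, 0.772 and 0.127 FPKM in LZ, and it reached 1 FPKM in no other gate, so it passed the filter through the gate where it was high.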

How the data were processed

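The deposited values are FPKM per gene, which the authors made with TopHat2 2.0.8, Cufflinks 2.1.1 and build mm9, per the submitters' processing notes. The gene annotation they used is not given in the sources used here. Per the labels' protocols, RNA of 10000 to 20000 sorted cells was isolated with TRIzol and made into libraries with a NEBNext Ultra RNA kit. The table holds 23234 named genes, and 1 row without a name was left out.

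The 11266 genes that reached 1 FPKM in 2 or more libraries were set to log2(FPKM + 1). One mean per gate was fitted over all 16 libraries with limma 3.58.1 (R 4.3.3), with a trend of variance on level, so gates of 2 and 3 libraries share their spread. Benjamini-Hochberg adjustment was over all genes, separately for each comparison. FPKM are not counts, so no count test was run. The model was tested on simulated data. Libraries of a gate correlated at r = 0.951 to 0.966, and none held identical values.

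All 9 members are named. Of each pathway list, the 4 most abundant tested genes were to be named, and the text gives a part of these, besides genes said to be named after their values were seen and single markers and neighbouring genes (Igj, Sdc1, Lck, Prelid1), also chosen after. Genes most like a member are by Pearson correlation among tested genes with a mean of at least 5 FPKM, for members with a mean of at least 3 FPKM. Some genes that these rules name are not reported here. The members and lists were chosen with earlier results of these data known. Each library was left out in turn. Other alternatives were array weights, a block on replicate number, a fit to the compared gates alone, no filter or one of 5 FPKM, a pseudocount of 0.1, and scaling by quantiles or by median ratios. Fraction 7 library 1 alone was added after seeing the data. Promoter windows and gene names are from RefSeq and GENCODE tables of another build, GRCm38, matched by symbol. Summaries and figures were made with matplotlib 3.10.9, numpy 2.4.6 and pandas 2.3.3 under Python 3.11.15.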

Additional observations from a re-analysis of the deposited data

How the results depend on the processing

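Over 96 results on single members and 2328 alternative values, 2166 kept direction and side of the threshold, 118 lost their call, 19 gained one and 25 changed sign, and the causes were not tested. All 25 that changed sign were of changes not called in the report, except for Max in Fraction 7 against Fraction 2. Quantile normalization turned the log2 change of Max to 0.15 and of Mnt to 0.0102 in Fraction 5 against Fraction 3, of Max to 0.0027 and of Mxd4 to 0.00039 in Fraction 6 against Fraction 5, of Myc to 0.14 and of Mxd4 to 0.10 in Fraction 7 against LZ, and of Max to 0.0254 in Fraction 7 against Fraction 2. Median-ratio scaling turned Max to 0.0139 in Fraction 5 against Fraction 3, Mxd1 to 0.0436 in Fraction 7 against Fraction 6 and Myc to 0.0021 in Fraction 7 against LZ. Array weights turned Mnt to -0.0019 in Fraction 7 against LZ. Fraction 7 library 1 alone turned Mxd1 to 0.12 and Mnt to 0.16 against Fraction 6, and Tfap4 to 0.28 against LZ. With each library left out, the ranges that crossed 0 were -0.0151 to 0.24 for Mxi1 and -0.0574 to 0.39 for Mxd1 in Fraction 2 against Fraction 3, -0.0717 to 0.0157 for Max in Fraction 5 against Fraction 3, -0.0853 to 0.0298 for Mxd1 in Fraction 7 against Fraction 6, -0.25 to 0.0190 for Mxd4 in Fraction 6 against Fraction 5, and -0.0058 to 0.23 for Mnt and -0.35 to 0.0227 for Tfap4 in Fraction 7 against LZ.

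Of the counts of members called, that of Fraction 2 against Fraction 3 was 2 without a filter, and that of Fraction 7 against Fraction 6 was 3 without a filter, 2 with the gates fitted alone and 3 with array weights. That of Fraction 7 against LZ was 2 with a filter of 5 FPKM, which leaves out Mxd1 and Mxi1. Fitting the gates alone, the genes called numbered 1108 in Fraction 2 against Fraction 3 and 1248 in Fraction 7 against Fraction 6, which was 1589 with Fraction 7 library 1 alone. Leaving out each library, the genes called ranged from 660 to 1980 in Fraction 2 against Fraction 3, from 1152 to 2138 in Fraction 6 against Fraction 5 and from 1334 to 2491 in Fraction 7 against Fraction 6. The members called then ranged from 1 to 4, from 1 to 3 and from 1 to 5 in the same comparisons, and from 3 to 5 in Fraction 5 against Fraction 2, and the neighbours called from 5 to 9. The antagonist sum of Fraction 7 was 77.4 FPKM under median-ratio scaling. Rescaling also moved the share of higher calls among all genes: 45.4% under quantile normalization against 58.7% as reported in Fraction 2 against Fraction 3, 50.2% against 33.9% in Fraction 5 against Fraction 3, 52.3% against 37.99% in Fraction 5 against Fraction 2, 45.1% against 34.7% in Fraction 7 against Fraction 6 and 49.98% against 38.9% in Fraction 7 against LZ.

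Replicate numbers showed no sign of pairing the libraries. Over 36 same-numbered pairs from different gates, correlations of deviations ran from -0.184 to 0.155, and over 70 pairs of different number from -0.155 to 0.183. Of 16 libraries, 3 correlated best with their own number. With gates of 2 or 3 libraries this cannot tell if same-numbered libraries share a pool of mice. With the replicate number as a block, 3 members were called in Fraction 2 against Fraction 3 and 5 each in Fraction 5 against Fraction 3 and in Fraction 7 against LZ. The block moved the genes called to 1618, 3518, 4908, 2076, 2471 and 7081 in Fraction 2 against 3, 5 against 3, 5 against 2, 6 against 5, 7 against 6 and 7 against LZ, and turned Mxd1 to 0.0507 in Fraction 7 against Fraction 6.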
